A study of Drosophila melanogaster with 2 samples.

Results

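The cytosolic ribosomal protein genes of Drosophila melanogaster were examined in a genome-wide map of Trachealess (Trh), the bHLH-PAS regulator that the embryo needs to form its tracheae and salivary ducts. Members were all protein-coding genes whose symbol starts with RpL or RpS followed by a digit, and 88 of 13945 protein-coding genes met this rule. They comprised 50 genes of the large and 38 of the small ribosomal subunit, and an ATG was present as the first codon of the annotated coding sequence of all 88 in the genome used. ChIP-seq had been done on whole embryos of both sexes, aged 0 to 24 h, from a transgenic line in which GFP was fused to the C-terminal end of the trh product. Chromatin was sheared by sonication and precipitated with an antibody against GFP. The study has a single group of 2 biological replicates, which the labels number 1 and 3. No test over samples could be made, since there is nothing to set this group against. Whole embryos mix all cell types and 24 h of stages, and a precipitation from embryos without the fusion protein was not analysed here.

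Cytosolic ribosomal proteins are made in nearly equal amounts by every growing cell, and loss of 1 copy of many of their genes gives the Minute phenotype of slow development and short bristles. Their promoters usually lack a TATA box and start transcription within a run of pyrimidines, the TCT initiator. Other elements known from housekeeping promoters of the fly are the DRE, read by the factor DREF, and the motif 1 element, read by M1BP. Trh acts as a dimer with Tango and is known to read sequences around the core ACGTG.

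Stretches of 120 bases around the start sites of 8 members with a Trh peak there are shown here. They run from base -90 to base 30 of the transcribed strand, where base 1 is the annotated start site, and come from the release 6 genome of NCBI RefSeq (dm6). The first 5 belong to the strongest start-site peaks with a printable window, and the other 3 were chosen because their summit window holds TATCGATA, the core of the DRE, or GGTCACACT, the core of motif 1. Capitals mark these cores and the pyrimidine run CTTTT or CTTTC within 5 bases of the start site. RpS27 lies at chr3R:25247485-25247604 on the minus strand, RpL14 at chr3L:8600916-8601035 on the plus strand, RpL28 at chr3L:3222931-3223050 on the minus strand and RpL23A at chr3L:1668625-1668744 on the minus strand. RpL34b lies at chr3R:9401197-9401316 on the minus strand, RpS25 at chr3R:11216258-11216377 on the minus strand, RpL27A at chr2L:4458335-4458454 on the minus strand and RpS15Aa at chrX:13337676-13337795 on the minus strand.
RpS27: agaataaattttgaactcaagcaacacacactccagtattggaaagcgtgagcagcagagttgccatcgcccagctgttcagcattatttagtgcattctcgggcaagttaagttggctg
RpL14: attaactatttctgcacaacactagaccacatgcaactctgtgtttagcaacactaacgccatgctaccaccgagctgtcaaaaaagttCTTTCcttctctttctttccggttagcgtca
RpL28: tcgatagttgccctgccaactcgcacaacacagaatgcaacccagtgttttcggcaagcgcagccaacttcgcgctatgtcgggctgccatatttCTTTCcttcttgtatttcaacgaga
RpL23A: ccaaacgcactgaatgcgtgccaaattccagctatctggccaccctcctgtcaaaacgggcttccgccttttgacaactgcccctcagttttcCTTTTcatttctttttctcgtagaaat
RpL34b: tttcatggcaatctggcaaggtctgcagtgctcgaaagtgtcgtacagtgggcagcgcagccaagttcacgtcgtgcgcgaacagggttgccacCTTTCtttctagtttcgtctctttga
RpS25: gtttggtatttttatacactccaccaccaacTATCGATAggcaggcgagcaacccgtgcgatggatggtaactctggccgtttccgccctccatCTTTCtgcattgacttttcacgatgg
RpL27A: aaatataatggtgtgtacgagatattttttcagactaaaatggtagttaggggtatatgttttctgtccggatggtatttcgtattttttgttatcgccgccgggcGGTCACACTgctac
RpS15Aa: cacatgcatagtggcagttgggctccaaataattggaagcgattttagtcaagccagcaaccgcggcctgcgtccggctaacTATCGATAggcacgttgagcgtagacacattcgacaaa

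RpL14, RpL28, RpL23A, RpL34b and RpS25 carried a pyrimidine run at the start site, and the RpS27 stretch holds neither that run nor a marked core. RpS27 has 2 annotated start sites, and CTTTT lies near the one not shown, so it is counted below among the members with that run. RpS25 and RpS15Aa held TATCGATA, and the RpL28 stretch begins inside another copy, which is left unmarked because its first bases fall outside the window. In RpL27A the core of motif 1 lay downstream of the start site shown, and the summit of its peak was 21 bp downstream of that start site. The RpL34b summit lay 92 bp upstream of its start site, just outside the stretch shown.

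Most ribosomal protein genes had a Trh peak, and the peaks sat close to their start sites. The authors kept 2322 peaks by irreproducible discovery rate (IDR), a measure of how well 2 replicates rank the same peaks, and a peak past this threshold was given to a gene when the summit lay in the gene span or within 2000 bp of it. By this rule 63 of the 88 members had a peak (71.6%, 95% exact interval 61.0 to 80.7%), against 22.4% of all protein-coding genes. For the large subunit 36 of 50 genes had one (72.0%, 57.5 to 83.8%) and for the small subunit 27 of 38 (71.1%, 54.1 to 84.6%), and these intervals overlap. Genes of the mitochondrial ribosome had a peak in 26 of 73 cases (35.6%), and those of translation initiation and elongation factors in 17 of 51 (33.3%). Intervals are Clopper-Pearson intervals and cover counting error only; genes that share a peak are not independent.

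Within 500 bp of an own annotated start site, a summit was present for 54 members (61.4%, 50.4 to 71.6%), against 11.8% of all protein-coding genes. Within 100 bp it was present for 46 members (52.3%), against 3.43%. Large subunit genes had a start-site peak within 500 bp in 35 of 50 cases (70.0%, 55.4 to 82.1%) and small subunit genes in 19 of 38 (50%, 33.4 to 66.6%), and these intervals overlap. Of the mitochondrial ribosomal protein genes, 16 had a summit within 500 bp and 1 of 73 within 100 bp (1.37%). Of the 51 translation factor genes, 10 had a summit within 500 bp (19.6%) and 7 within 100 bp (13.7%). Few summits lay inside the genes themselves: 13 members had one in the span alone (14.8%, against 7.02% of all protein-coding genes), and widening the span by 500 bp gave the same 54 members as the start-site count, against 16.4%. Giving each peak only to the protein-coding gene with the nearest start site left 51 members with a peak (58.0%, against 13.3%).

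**Figure D1:**
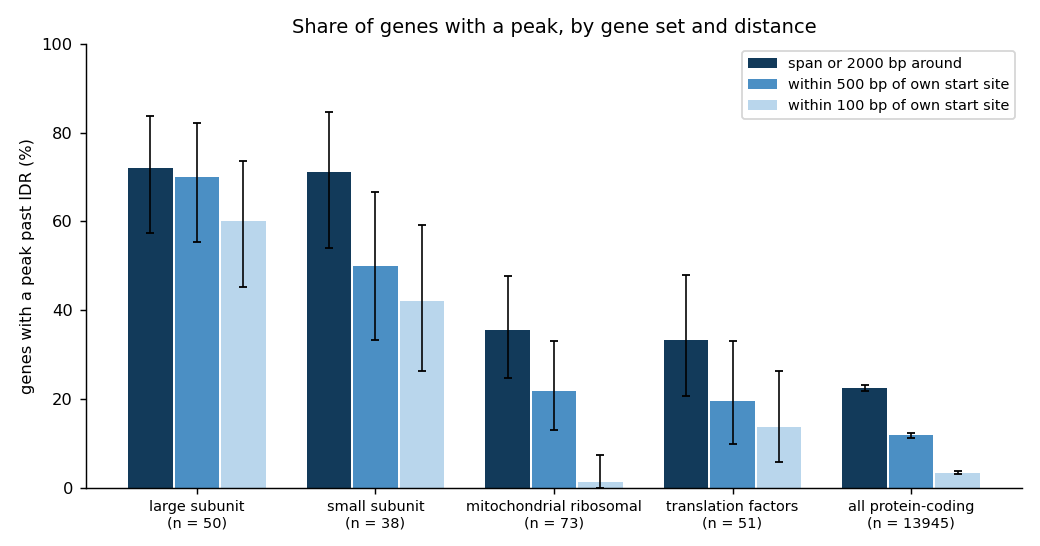
Share of genes with a Trh peak past the IDR threshold (bars, in percent) in each gene set, for 3 distances between summit and gene. Error bars are exact 95% intervals, which cover counting error only. Both subunits stand near 70% with the widest rule. Within 100 bp the mitochondrial ribosomal protein genes fall to 1.37% and the translation factor genes to 13.7%.

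Each replicate alone gave a similar count. Among the 2322 strongest peaks of replicate 1, a peak in the span or within 2000 bp was found for 58 members (65.9%, against 22.7% of all protein-coding genes). Among as many peaks of replicate 3, one was found for 53 members (60.2%, against 21.5%). At own start sites the counts were 51 members in replicate 1 (58.0%, against 12.1%) and 47 in replicate 3 (53.4%, against 11.0%). Restricting the list past IDR to its 1161 strongest peaks left 42 members with a peak (47.7%, against 12.9%).

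The strongest start-site peaks belonged to both subunits. Signal values and ranks are scores of the authors' peak caller, and rank 1 is the strongest peak of a list. RpL7, a large subunit protein, had a signal value of 387 (rank 56) in a peak at chr2L:10200924-10201123 whose summit lay in the 5′ UTR, 38 bp downstream of the start site. Its peak ranked 54 in replicate 1 and 72 in replicate 3. RpS27, a small subunit protein, had a signal value of 381 (rank 58) at chr3R:25247409-25247627, with ranks of 43 and 92 in replicates 1 and 3. Its summit lay 10 bp upstream of the start site, inside the stretch shown above. Both were among the 100 strongest peaks of each replicate, and no other start-site peak of a member was.

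Among the remaining large subunit genes, RpL14 reached 282.5 (rank 128, chr3L:8600862-8600997), RpL28 reached 267 (rank 150, chr3L:3222946-3223081) and RpL23A reached 255 (rank 166, chr3L:1668530-1668929). Their summits lay 54, 85 and 76 bp upstream of the start site, and all 3 genes carried a pyrimidine run there. Their ranks were 91, 145 and 121 in replicate 1, and 232, 192 and 217 in replicate 3. RpL41, which encodes one of the shortest known ribosomal proteins, followed with 240 (rank 197, chr2R:24903944-24904074), 56 bp upstream of its start site. RpL34b had 198 (rank 317, chr3R:9401118-9401517), with the summit 92 bp upstream. In replicate 1 RpL41 and RpL34b ranked 137 and 261, and in replicate 3 they ranked 344 and 480.

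Of the small subunit genes, RpS16 had 208 (rank 276, chr2R:22605861-22606260) and RpS25 had 196 (rank 326, chr3R:11216136-11216535). Their summits lay 66 and 49 bp upstream of the nearest own start site, the first of them in the 5′ UTR of a longer transcript. RpS16 ranked 180 in replicate 1 and 605 in replicate 3, and RpS25 ranked 211 and 1038. Both therefore stood higher in replicate 1. The next in order were RpL19 (196), RpL32 (190), whose transcript is widely used as a reference in fly expression work, RpS20 (188), RpL11 (183), which binds the 5S rRNA, and RpL4 (183), which lines the exit tunnel.

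**Figure D2:**
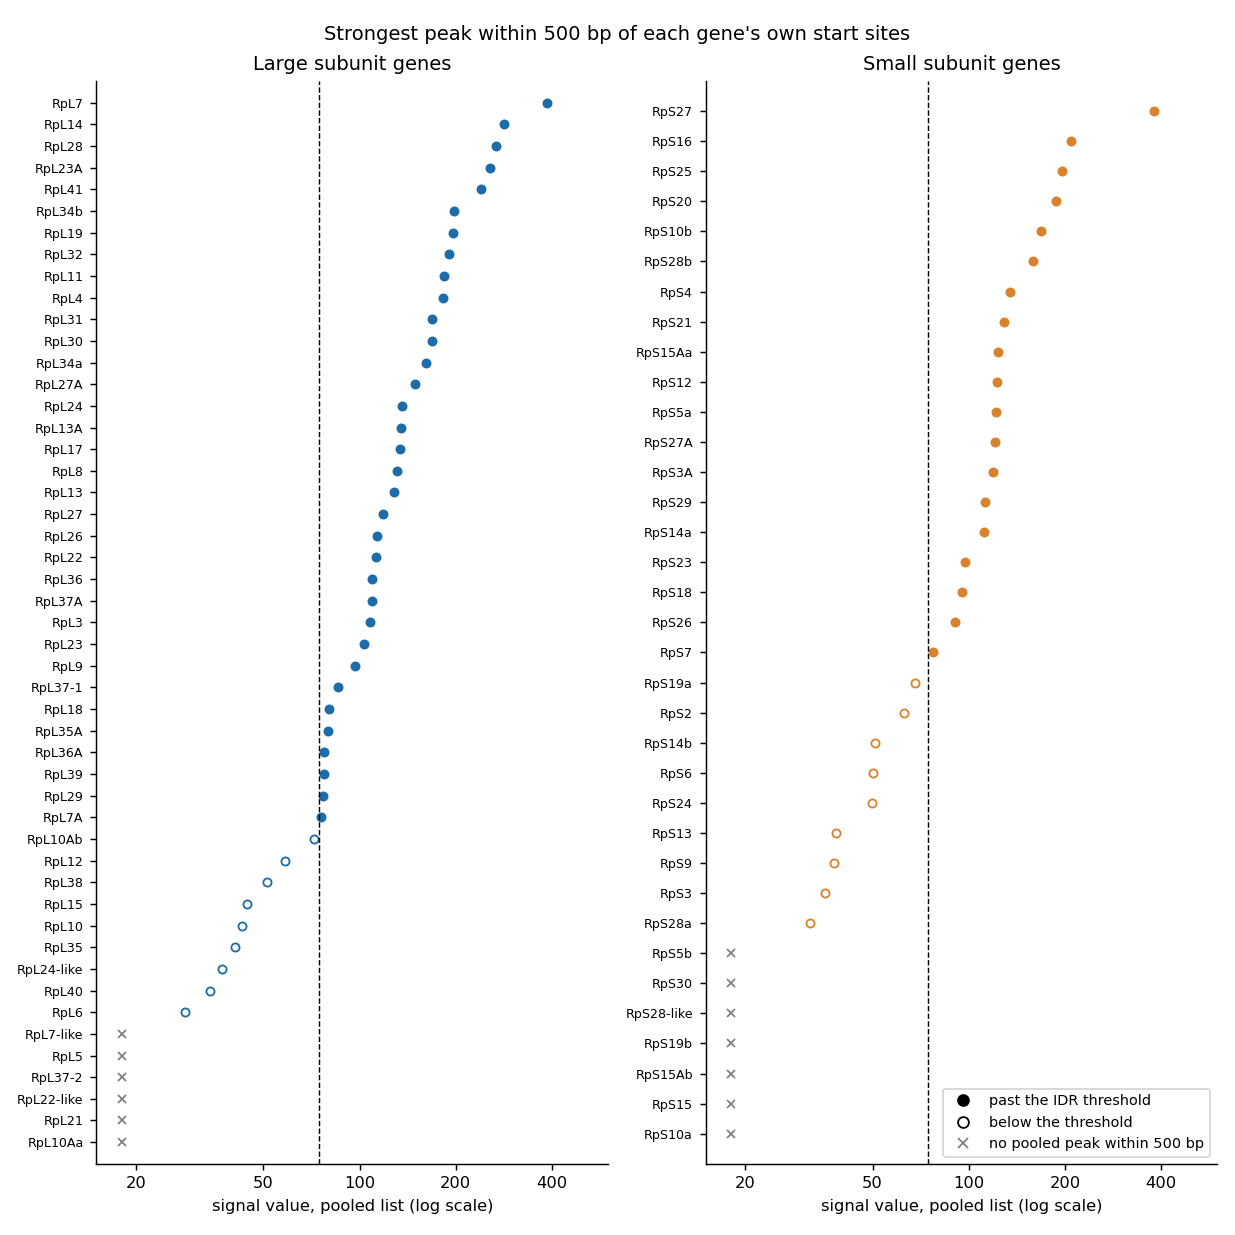
Signal value (log scale) of the strongest peak of the pooled list within 500 bp of an own start site, for 49 large and 35 small subunit genes. Filled points are past the IDR threshold (dashed line, the lowest signal value past it, 74.4), open points are below it, and crosses are genes with no pooled peak there, drawn at an arbitrary place on the left. RpL7 and RpS27 stand apart at the top, and points continue on both sides of the threshold.

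The 54 start-site peaks had a median signal value of 128, from 75.9 at RpL7A to 387 at RpL7, and 38 of them (70.4%) were among the 1161 strongest peaks past IDR. The 1160 other peaks within 500 bp of a start site had a median of 115.4, with 54.3% in that part of the list. Peaks past IDR were the 2322 strongest peaks of the pooled list, so the threshold acts here as a limit on rank. Just inside it lay the start-site peaks of RpL29 (rank 2207) and RpL7A (rank 2245), and just outside it lay those of RpL10Ab (rank 2454) and RpS19a (rank 2707). The members' signal values thus continue on both sides of the threshold.

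Replicate 1 placed the members higher than replicate 3 did. Of the 54 start-site peaks, 53 had a summit within 100 bp in the list of replicate 1, 52 in that of replicate 3, and 51 in both, with a median of 32 bp between the replicates' summits. The median rank was 715 in replicate 1 and 1037 in replicate 3, and 39 of the 51 peaks (76.5%) ranked better in replicate 1, against 562 of 1091 other promoter peaks (51.5%). RpL9 was far apart, with rank 956 in replicate 1 and 6066 in replicate 3, and RpS18 had ranks 980 and 4369. RpL18 went the other way, with rank 3515 in replicate 1 and 1403 in replicate 3. RpS28b also ranked better in replicate 3, at 425 against 665. Whether sequencing depth differed between the replicates is unknown, and the source of the shift was not tested.

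**Figure D3:**
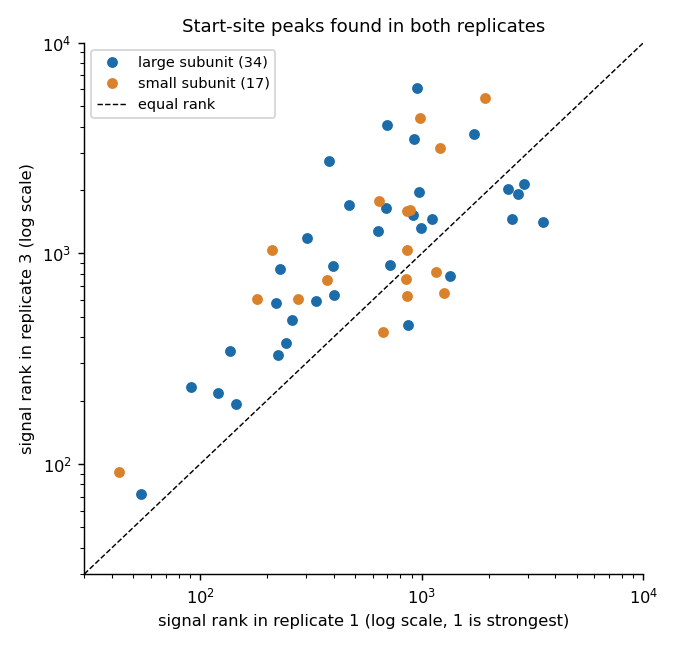
Signal rank of the 51 members' start-site peaks found in both replicates, in replicate 1 (horizontal) and replicate 3 (vertical), both on log scales, with the line of equal rank. Most points, 39 of 51, lie above the line, which is a better rank in replicate 1.

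Summits at ribosomal protein genes lay nearer to the start site than those at other genes. Among members with a start-site peak the median position was 49 bp upstream, with quartiles at -76.8 and -10.2 bp. Among 1594 other protein-coding genes with such a peak the median was 149 bp upstream, with quartiles at -226 and -84.2 bp. A summit within 100 bp was found for 85.2% of these members and 25.7% of these other genes. Large subunit genes had a median of 54 bp upstream and small subunit genes of 41 bp upstream. The 16 mitochondrial ribosomal protein genes with such a peak had a median of 181 bp upstream, and the 10 translation factor genes of 52.5 bp upstream.

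The same order was seen in each replicate alone. In replicate 1 the median was 32 bp upstream for 51 members and 145 bp upstream for 1643 other genes. In replicate 3 it was 53 bp upstream for 47 members and 156 bp upstream for 1490 other genes. The share within 100 bp was 88.2% against 29.0% in replicate 1, and 85.1% against 23.9% in replicate 3.

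The members' summits were also the nearer ones among genes with as many annotated start sites and among genes with or without a close neighbour. For genes with 1 annotated start site the median was 72.5 bp upstream in 24 members and 155 bp upstream in 891 other genes. Where no other gene started within 500 bp of the summit, it was 27.5 bp upstream in 28 members and 163 bp upstream in 601 other genes. Where another gene did start there, it was 64 bp upstream in 26 members and 143 bp upstream in 993 other genes. By annotation, 41 of the 54 summits were upstream of the gene, 12 were in a 5′ UTR and 1, at RpL3, was in an intron.

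**Figure D4:**
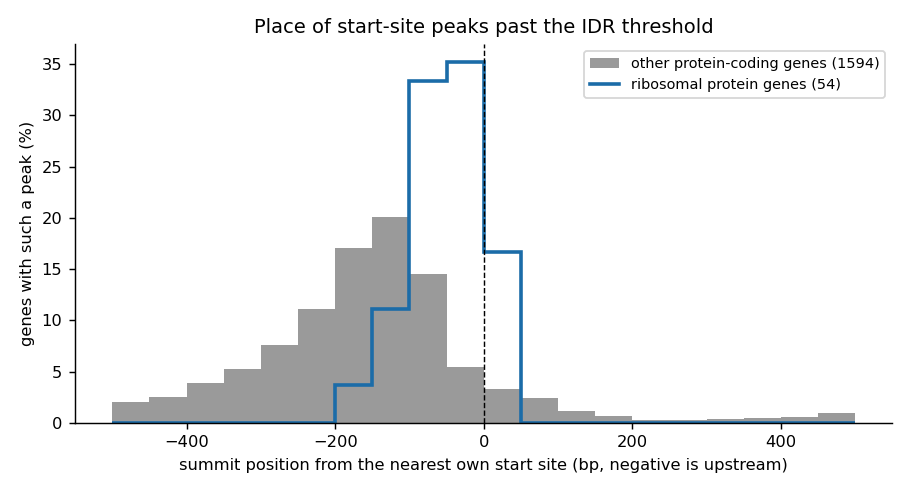
Position of the strongest start-site summit from the nearest own start site (horizontal, in bp, 50 bp bins, negative is upstream) as a share of the genes with such a peak (vertical, in percent). The members (blue line, 54 genes) peak in the last 50 bp before the start site, with 35.2% of genes, and other protein-coding genes (grey, 1594 genes) peak between 100 and 150 bp upstream, with 20.1%.

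Some of these summits were also near the start site of another gene. Such a gene started within 500 bp of the summit for 26 of the 54 members (48.1%, 34.3 to 62.2%), against 62.3% of the 1594 other genes, and such a summit belongs to both. The RpL13 summit lay near the start site of Dref, which encodes the DRE-binding factor, the RpL28 summit near that of the initiation factor gene eIF1, and the RpL14 summit near that of Nelf-E, a subunit of the negative elongation factor. RpL36 shared its summit with Mybbp1A, and RpS27 shared its with the nucleoporin gene Nup37.

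For 10 members with a peak past IDR, the strongest summit was more than 500 bp from every own start site. The stronger of the peaks given to RpL3, a protein near the peptidyl transferase centre, was such a distant one (229, rank 220, chr3R:11226442-11226841, 4748 bp downstream) and lay 120 bp from the start site of CG17726. In replicates 1 and 3 it ranked 208 and 231. RpL3 also had a start-site peak, with a signal value of 108 (rank 1210) 47 bp downstream of the start site.

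RpS5b had 132 (rank 788) beside Nup93-2, RpS13 had 93.5 (rank 1557) beside CG7627, RpS3 had 89.2 (rank 1677) with Sec13 as the nearest gene, RpS19a had 75.04 (rank 2284) beside mthl1, and RpS9 had 74.4 (rank 2319) with CG3408 as the nearest. RpS19b had 83.6 (rank 1910) 945 bp upstream of its start site. Of these 6, RpS5b and RpS19b had no pooled peak at an own start site, and the others had one at ranks from 2707 (RpS19a) to 10115 (RpS3). RpL12 and RpS14b each took the start-site peak of a neighbouring member, as given below. Of the 10 genes, 8 belong to the small subunit, which is the step from 27 to 19 small subunit genes between the wide rule and the start-site rule.

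A pooled peak was listed for most protein-coding genes, and also for most members that the IDR list left out. In the pooled list of 21025 peaks, 81 members had a summit in the span or within 2000 bp (92.0%, against 73.3% of all protein-coding genes) and 74 had one at an own start site (84.1%, against 41.0%). The pooled list holds peaks together with background, so a low rank in it is weak evidence of a peak. Of the 34 members without a start-site peak past IDR, 20 had a pooled one, at ranks from 2454 to 17880 with a median of 5324. Of all 13945 protein-coding genes, 1648 had a start-site peak past IDR and 5718 a pooled one. By the wider rule these counts were 3130 and 10221, so many genes without a peak past IDR had a pooled one.

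Of the 25 members with no peak past IDR at all, 18 had a pooled peak in the span or within 2000 bp, and 13 had one at an own start site. The ranks that follow are those of the strongest pooled peak in the wide window, wherever it lay. RpL5, RpS10a, RpS15, RpS15Ab and RpS30 had no pooled peak at an own start site. At own start sites RpL6, RpL35 and RpL40 had pooled ranks of 17880, 7197 and 11189. In the large subunit, the best pooled ranks were 2454 for RpL10Ab, 3261 for RpL6, 4448 for RpL38, 5147 for RpL35, 5561 for RpL5, which binds the 5S rRNA with RpL11, and 5970 for RpL15. RpL10, which joins the subunit late in assembly, had rank 6472, RpL40, made as a fusion with ubiquitin, had 7911, and RpL24-like had 8932. In the small subunit they were 2508 for RpS15Ab, 3135 for RpS2, 4651 for RpS6, the classical target of S6 kinase, 4678 for RpS24, 6709 for RpS15, 12466 for RpS10a, 12493 for RpS30 and 13315 for RpS28a. RpL10Aa, RpL21, RpL22-like, RpL37-2, RpL7-like and RpS28-like were among the 7 with no pooled peak by this rule, and RpL37-2 had none in either replicate's list as well.

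Paralogues were mostly split, with 1 copy carrying the start-site peak. The 12 paralogue groups hold 25 members, and at own start sites every member had a peak in 1 group, some in 9 and none in 2. By the wider rule the numbers were 4, 7 and 1. Start-site peaks were found for 11 of the 25 paralogues (44.0%, 24.4 to 65.1%) and 43 of the 63 other members (68.3%, 55.3 to 79.4%), and the intervals overlap.

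RpL34 was the group with a peak at both copies. RpL34a had a signal value of 161 (rank 502), 112 bp upstream, and RpL34b had 198, 92 bp upstream as given above. Their ranks in replicates 1 and 3 were 396 and 875 for RpL34a. In the other large subunit groups a single copy stood out. RpL7 had its peak of 387 and RpL7-like, related to a yeast ribosome assembly factor, had none in the pooled list. RpL24 had 136 (rank 737) with the summit 3 bp upstream of the start site, and RpL24-like, which is likewise related to a yeast assembly factor, had only the pooled peak of rank 8932. RpL22 had 113 (rank 1091) 79 bp upstream, and RpL22-like, known for expression in the male germ line, had no pooled peak. RpL37-1 had 85.5 (rank 1809) 38 bp upstream, and RpL37-2 had none. In the RpL10A group neither copy passed the threshold.

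In the small subunit, RpS10b had 168 (rank 463) 22 bp upstream and RpS10a had no pooled peak at its start site. RpS28b had 159 (rank 520) 73 bp upstream, RpS28a had a pooled peak of rank 13315 and RpS28-like had none. RpS15Aa had 124 (rank 894) 11 bp upstream, with ranks of 644 and 1776 in replicates 1 and 3, and RpS15Ab had no start-site peak in any list. RpS5a had 122 (rank 925) 81 bp upstream, with ranks of 1161 and 819, while the peak given to RpS5b, the copy known for expression in the ovary, was the distant one described above. RpS19a and RpS19b both had distant peaks and none at a start site past IDR. RpS14a had 112 (rank 1115) 139 bp upstream, and the same summit lay 1295 bp upstream of its tandem copy RpS14b, whose own start site had a pooled peak of rank 4501. These tandem copies are nearly identical, so reads may not have been assigned to either with certainty. No summit of replicate 3 lay within 100 bp of this one, but that replicate had a summit of rank 1720 23 bp upstream of the RpS14a start site. RpL39 and RpL12, which are not paralogues, also shared a peak, with a signal value of 77.2 (rank 2182) 31 bp upstream of RpL39 and 2008 bp from the RpL12 start site.

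**Figure D5:**
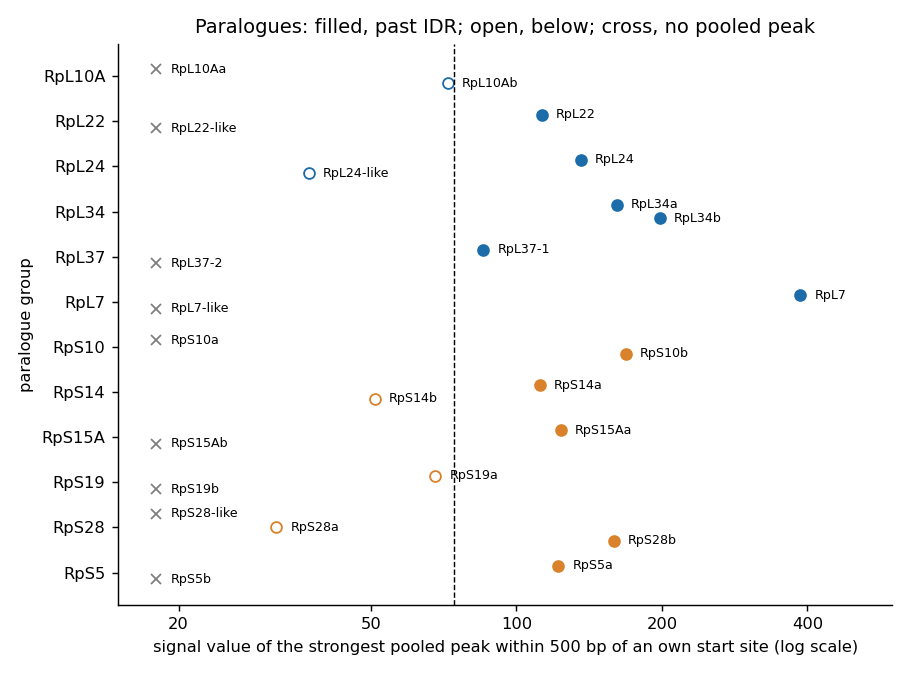
Signal value (log scale) of the strongest pooled peak within 500 bp of an own start site, for the 25 members of 12 paralogue groups. Filled points are past the IDR threshold (dashed line at 74.4), open points are below it and crosses have no pooled peak there. Only the RpL34 group has filled points for every member, and in 9 groups filled and unfilled members stand together.

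Start-site peaks were also counted by other features of the genes. The 28 members that hold a snoRNA gene in their span had a start-site peak in 21 cases (75%, 55.1 to 89.3%), and the 60 without one in 33 (55.0%, 41.6 to 67.9%). Of the 44 longer members 32 had one (72.7%, 57.2 to 85.0%), and of the 44 shorter ones 22 (50%, 34.6 to 65.4%). Members with 1 annotated start site had one in 24 of 45 cases (53.3%) and members with more in 30 of 43 (69.8%). The intervals overlap in each of these splits. By chromosome the counts were 11 of 18 on 2L, 11 of 19 on 2R, 8 of 13 on 3L, 13 of 23 on 3R, 10 of 14 on X and 1 of 1, RpS3A, on chromosome 4. These splits were made among members only, without the shares of all protein-coding genes in the same classes.

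The DRE core was found at the summit of 13 start-site peaks. In 101 bp windows centred on the summit and read on both strands, TATCGATA was present in these 13 of 54 members (24.1%, 13.5 to 37.6%) and in 2.59% of the 1160 other promoter peaks. Among them were RpL26, RpL27, RpL28, RpL36, RpL36A, RpL37-1, RpL39, RpL41, RpS12, RpS15Aa, RpS25 and RpS29. Its centre lay a median of 13.5 bp from the summit, from 3.5 bp at RpL28 to 28.5 bp at RpL41, and within 25 bp in 12 of 13. Of the other promoter peaks within 100 bp of a start site, 6.17% held it, against 26.1% of the members' peaks that close. In replicate 1 the share was 27.5% of the members' start-site peaks against 4.25% of others, and in replicate 3 it was 21.3% against 2.70%. For single replicates the others are the start-site peaks of all other protein-coding genes, which can include a peak shared with a member. Members with and without TATCGATA at the summit had median ranks of 981 and 763.

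ACGTG, the core read by Trh with Tango, was present at 11 of 54 summits (20.4%, 10.6 to 33.5%), against 7.07% of other promoter peaks. The genes were RpL3, RpL7, RpL8, RpL11, RpL24, RpL29, RpL30, RpS3A, RpS15Aa, RpS18 and RpS21. The longer CACGTG, which contains ACGTG, was present at RpL7, RpL11, RpL24 and RpL29 (7.41%, against 0.948%). In replicates 1 and 3, ACGTG was present in 21.6% and 23.4% of the members' start-site peaks, against 6.90% and 6.46% of others, taken as for TATCGATA. The centre of ACGTG lay a median of 23 bp from the summit, and within 25 bp in 6 of 11. Members with and without ACGTG had median ranks of 833 and 844. RpS15Aa alone held both ACGTG and TATCGATA, and 31 of 54 summits held neither. GGTCACACT was present at 2 summits, those of RpL27A and RpL37A (3.70%, against 0.690%), and TATAAA at 4 (7.41%, against 25.3%). A match is a description of letters and not of a bound site.

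The members' summits were also richer in G and C. The median GC content of the windows was 45.5%, against 31.7% for other promoter peaks, and within 100 bp of a start site it was 47.0% against 35.6%. The medians were 46.5% against 31.7% in replicate 1 and 44.6% against 31.7% in replicate 3, where the others can include peaks shared with a member. What base composition adds to the shares of single sequences was not tested.

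The same sequences were also present at start sites of members without a peak. Between base -90 and base 30 of any annotated start site, TATCGATA was present in 26 of the 88 members (29.5%), against 7.82% of other protein-coding genes, and in 33.3% of members with and 23.5% of members without a start-site peak. For ACGTG the share was 34.1%, against 13.0%, and 40.7% and 23.5% of members with and without a peak. For CACGTG it was 11.4%, against 1.92%, and 16.7% (7.92 to 29.3%) and 2.94% (0.0744 to 15.3%). The intervals of members with and without a peak overlap for each of the 3 sequences. Members with more than 1 annotated start site were searched over more bases. Of these, 69.8% had a start-site peak, against 53.3% of members with 1 start site, and the shares were not adjusted for this. Mitochondrial ribosomal protein genes held TATCGATA in 20.5% and ACGTG in 12.3% of cases.

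The TCT initiator, searched as CTTTT within 5 bases of a start site on the gene's strand, was present in 30 of 88 members (34.1%), against 2.68% of other protein-coding genes. With CTTTC counted too, a choice made after the data were seen, it was present in 55 members (62.5%), against 4.77% of others and 5.48% of mitochondrial ribosomal protein genes. A start-site peak was found for 19 of the 30 members with CTTTT (63.3%, 43.9 to 80.1%) and 35 of the 58 without it (60.3%, 46.6 to 73.0%), and these intervals overlap. Among other genes the shares were 16.2% of 371 with it (12.6 to 20.3%) and 11.4% of 13486 without it (10.8 to 11.9%). The intervals of these other genes do not overlap.

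Ribosome genes outside the rule by symbol gave mixed results. Of the stalk genes, RpLP0 had a start-site peak with a signal value of 158 (rank 523) and RpLP1 one of 79.2 (rank 2087), and RpLP2 had a pooled peak of rank 3021. The gene sta, which encodes a small subunit protein, had a pooled peak of rank 2333, just below the threshold. Of 23 genes of ribosome assembly and rRNA synthesis, 6 had a peak past IDR (26.1%, 10.2 to 48.4%), all at a start site. Of all protein-coding genes, 22.4% had a peak by the wide rule and 11.8% had one at a start site. The interval holds both shares. The highest of the 6 genes were eIF6, which keeps the subunits apart, with a signal value of 334 (rank 82), and Ns2 with 218 (rank 247). The others were NHP2, Mybbp1A, Nopp140 and Nop60B, at 112, 110, 82.3 and 81.5. Fib, Nop56 and nop5, which belong to the box C/D snoRNP, were among the 17 without one.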

How the data were processed

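The deposited peak lists (narrowPeak layout, dm6) came from calls of each replicate against the same control alignment, per the deposited file lists. A relaxed list of peaks with background was made per replicate and another on the pooled replicates, and a list past an IDR threshold was derived from them. The aligner, the peak caller and the threshold were not given in the sources used here. Signal values are scores from the authors' peak caller, used only to rank peaks within a list, and the deposited −log10 q values of peaks past IDR ran from 2.80 to 3.48. These files hold no read counts, so the depth is unknown. The lists on dm3 were not used here.

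Summits were set against the Ensembl BDGP6.54 annotation and the release 6 genome, whose chromosome lengths were checked against the lists. A gene was given every summit in its span and the 2000 bp around it, and it had a start-site peak when one lay within 500 bp of an own annotated start site. A replicate held a peak when its list had a summit within 100 bp. Single replicates were compared over their 2322 strongest peaks, out of 28743 in replicate 1 and 30000 in replicate 3. Sequences were searched in 101 bp windows around summits and from base -90 to base 30 of start sites. Shares carry exact 95% intervals, and no test was run.

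Values are given for the 12 members with the strongest peak, all paralogues, members with distant peaks only, and members with no peak. Results for some of these genes are not reported here. Sequences were limited to 8 members off 1 chromosome arm, and RpL7, whose window is mostly exon, was left out. The members, the gene lists and the sequences were chosen with earlier results of these data known. The scripts were tested on simulated data. The tools were Python 3.11.15, with numpy 2.4.6, matplotlib 3.10.9 and scipy 1.17.1.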

Additional observations from a re-analysis of the deposited data

How the results depend on the processing

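Of 76 alternative values for 20 results, 48 stayed within the spread allowed, 28 moved and 0 reversed. The share of members with a peak, 71.6%, was 14.8% in the span alone, 58.0% by the nearest start site, 47.7% in the 1161 strongest peaks and 92.0% in the pooled list, and with a single replicate it ran from 60.2% to 65.9%. For the large subunit, 72.0% became 16.0%, 48.0% and 90% by span, strongest peaks and pooled list. For the small subunit, 71.1% became 13.2%, 47.4% and 94.7% by these, and 50% with a 500 bp window, at own start sites and by the nearest start site. The share of strongest summits at an own start site, 84.1%, became 100% with the 500 bp window. The median signal value of the strongest peaks, 124, was 160 in the 1161 strongest and 49.8 to 81.0 with single replicates, whose lists have their own scale. The median rank of 894 became 511 in the 1161 strongest. Around the 61 strongest summits, ACGTG rose from 16.4% to 29.5% and TATAAA from 11.5% to 23.0% in windows of 100 bp to each side. Over all peaks past IDR the wider window also took ACGTG from 6.68% to 13.1% and TATAAA from 22.7% to 37.3%. At the members' summits GAGAG, at 4.92%, was at 0.0% within 25 bp and ran from 0.0% to 3.85% with single replicates. Of all peaks past IDR, 9.35% held GAGAG, and 4.69% within 25 bp. The TCT initiator went from 34.1% to 62.5% with CTTTC. Paralogue groups with a peak at every member and at none went from 4 and 1 to 1 and 2 at own start sites. Summits near another gene's start site, 48.1%, were 27.8% at 250 bp and 68.5% at 1000 bp. Counting any start-site peak in place of the strongest one and counting CTTTC were added after seeing the data. No paired analysis was possible because there is 1 group. Depth is unknown, so weak peaks cannot be told from background.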

Other observations

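Distant peaks and start-site peaks differed in how the replicates ranked them. Of the 10 members whose strongest peak past IDR lay away from their own start sites, RpS13, RpS19a, RpS19b, RpS3 and RpS5b ranked better in replicate 3, for example RpS13 at 1544 against 2038 in replicate 1. RpL3 and RpL12 ranked better in replicate 1, at 208 against 231 and 1711 against 3702, and RpS14b and RpS9 had no summit of replicate 3 within 100 bp. Among the start-site peaks 39 of 51 ranked better in replicate 1. The sets overlap, since the RpL12 peak is the start-site peak of RpL39 and is among these 39. The RpS14b peak is the start-site peak of RpS14a, near which replicate 3 had the summit of rank 1720 given above. The contrast between distant and start-site peaks was noticed after the values had been seen and was not tested.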
